A study of Mus musculus with 17 samples.

Results

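The set described here is 10 genes of glucose breakdown and of the response to low oxygen: Slc2a1, Hk2, Pfkfb3, Pfkp, Aldoa, Pgk1, Eno1, Ldha, Slc16a3 and Hif1a. They were chosen by name, and a gene was read from the probe sets (groups of short probes against 1 transcript) that the array's annotation assigns to that gene alone. This gave 23 probe sets for 9 of the 10 genes, out of 18193 genes measured in this way. Where a gene had several probe sets, the one with the highest mean over all samples stood for it. No probe set was assigned to Eno1, alone or with other genes, and no value of Eno1 is given.

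The samples were colon tissue of C57BL/6J mice given 2.5% dextran sodium sulfate (DSS), which injures the colonic epithelium, in the drinking water. CD4cre mice carried PPAR γ flfl and a Cre recombinase under CD4 control, so that PPAR γ was deleted in CD4+ and CD8+ T cells, which all pass a CD4-expressing stage in the thymus. WT mice were Cre-negative. Both genotypes were sampled before DSS (day 0), on day 2 and on day 7, with 3 samples in each group except WT mice on day 7 (2 samples), which made 17 in all. Day 0 mice had received no DSS. Ages were not given, and neither was whether a sample was 1 mouse. Replicates are read here as separate samples, and if several came from the same mice the p-values would measure a technical spread. Pparg did not check the deletion, because the tissue holds many other cells that express it: its group means lay between 9.39 and 10.64 on the log2 scale, and T cell markers were at or near background.

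Glycolysis converts glucose to pyruvate in the cytosol. Slc2a1 carries glucose into the cell, Hk2 phosphorylates it, Pfkp commits it to the pathway, Pfkfb3 makes the activator of that step, and Aldoa, Pgk1 and Eno1 act further down. Ldha turns pyruvate into lactate, and Slc16a3 exports the lactate. Hif1a is the oxygen-regulated subunit of the transcription factor HIF-1, which binds short DNA elements with the core ACGTG or GCGTG and is a known activator of the other genes of this set. Its regulation is mainly through protein stability, which these arrays did not measure. The colonic surface lies next to an oxygen-poor lumen, and activated myeloid cells are known for high glycolysis.

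The promoters of the genes that moved, and of Hif1a, are shown because they carry the HIF core. Each is the 250 bases before a transcription start in RefSeq on GRCm38.p6, written 5′ to 3′ on the gene's strand, with matches to ACGTG or GCGTG on either strand in capitals (on the opposite strand they read CACGT or CACGC, and CACGTG holds overlapping matches on both strands).
Hk2 (chr6:82774455-82774704, minus strand): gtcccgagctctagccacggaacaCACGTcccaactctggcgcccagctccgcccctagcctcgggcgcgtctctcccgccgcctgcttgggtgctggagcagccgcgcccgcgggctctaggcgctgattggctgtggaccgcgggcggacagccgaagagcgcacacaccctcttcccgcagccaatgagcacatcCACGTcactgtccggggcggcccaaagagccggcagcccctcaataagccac
Pfkfb3, first start (chr2:11502091-11502340, minus strand): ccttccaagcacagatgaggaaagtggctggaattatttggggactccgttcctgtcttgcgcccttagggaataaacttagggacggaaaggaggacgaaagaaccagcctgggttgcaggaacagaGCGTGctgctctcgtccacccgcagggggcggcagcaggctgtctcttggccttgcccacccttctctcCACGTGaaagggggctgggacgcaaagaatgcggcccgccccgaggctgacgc
Pfkfb3, second start (chr2:11553930-11554179, minus strand): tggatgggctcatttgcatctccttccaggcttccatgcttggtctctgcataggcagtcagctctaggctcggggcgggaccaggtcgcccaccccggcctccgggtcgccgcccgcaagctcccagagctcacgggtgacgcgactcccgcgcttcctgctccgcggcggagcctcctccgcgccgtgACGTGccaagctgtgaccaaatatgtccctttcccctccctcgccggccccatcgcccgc
Hif1a (chr12:73907617-73907866, plus strand): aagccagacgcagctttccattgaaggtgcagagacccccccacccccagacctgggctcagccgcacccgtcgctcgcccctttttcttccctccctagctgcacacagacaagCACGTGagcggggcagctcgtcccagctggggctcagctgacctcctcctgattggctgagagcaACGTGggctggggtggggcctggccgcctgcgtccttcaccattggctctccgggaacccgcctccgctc

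The Hk2 window held 2 matches, whose first bases lay at positions -226 and -52 from the start. The first Pfkfb3 window held 3 matches and the second held 1, and the Hif1a window held 3. Ldha had 5 matches in one of its windows, Pfkp had 3, and Slc2a1, Pgk1 and Slc16a3 had 2 each. A match was present for all 10 genes and in 15 of their 16 windows, while 38.6% of the 32851 windows in the table and 41.5% of its 27025 genes held one. Some windows of Aldoa and of Eno1 overlapped and held the same matches. HIF-1 was already a known activator of the genes other than Hif1a, so their high share is not independent of how the set was chosen. A match is a string of letters and was not tested for binding. The genes with matches included some that moved and more that did not.

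Values are log2 units after background correction, normalization and summary by the authors. A sample value below 3.34, the level under which most probe sets for genes of other tissues lay, was taken as background. Slc16a3 was at background in all 17 samples (2.61 to 3.34), so no fold change is given for it and it is left out of the signs and medians over the set. The other 8 genes were above background in every sample. Levels of different genes were not compared, because probe sets differ in how brightly they report. Changes were tested with limma over all 45037 probe sets, and a change was called at a Benjamini-Hochberg adjusted p under 0.05.

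Some samples stood apart from their groups. In 3 of them the median of 12 pancreatic enzyme genes was above 12 log2 units, against 2.69 or less in the other samples: replicate 2 of CD4cre mice on day 0, replicate 1 of CD4cre mice on day 2, and replicate 2 of WT mice on day 2. Hox genes of higher number are expressed further down the body axis, and a Hox position score was taken as the average level of 9 such genes (groups 9 to 13) less that of 8 genes of lower number (groups 2 to 8). It was -1.12 to -0.03 on day 0, 0.77 to 1.13 on day 2 and -1.49 to -1.36 on day 7 in WT mice, without overlap between the days. The score spanned -1.26 to 0.19 in CD4cre mice on day 0, -0.31 to 0.52 on day 2 and -1.22 to 0.21 on day 7. The spread between samples of a group was smallest in WT mice on day 7 (0.22) and largest in CD4cre mice on day 7 (0.51).

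The main change in this set was on day 7 in CD4cre mice, where Hk2 and Pfkfb3 rose. Of the 9 measured genes, 2 rose and none fell in CD4cre mice on day 7 against day 0, when 8.67% of all 18193 genes were called and 4.35% were called higher (13.1% and 6.39% of the 11648 genes above background). The 8 genes above background all had a value above 0 in the probe set that stood for each, with a median change of 0.32, against -0.03 over all genes. WT mice on day 7 had no call among the 9, with 0.104% of all genes called, 2 of the 8 values above 0 and a median of -0.09. At an unadjusted p under 0.05 there were 4 of the 8 in CD4cre mice on day 7, when 22.9% of all probe sets passed. In WT mice on day 7 there was none, when 9.57% passed. Both calls in CD4cre mice were lost without CD4cre day 0 replicate 2, which held pancreatic transcripts (Hk2 1.53, adjusted p = 0.0895, and Pfkfb3 1.85, adjusted p = 0.0642), and without CD4cre day 0 replicate 3 (Hk2 1.27, adjusted p = 0.0909, and Pfkfb3 1.75, adjusted p = 0.0599). They were also lost in a fit of these 2 groups alone, in which 28 probe sets in all were called against 3036 in the fit of all groups. The call of Hk2 was lost without CD4cre day 7 replicate 1 as well (1.26, adjusted p = 0.0862).

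**Figure D1:**
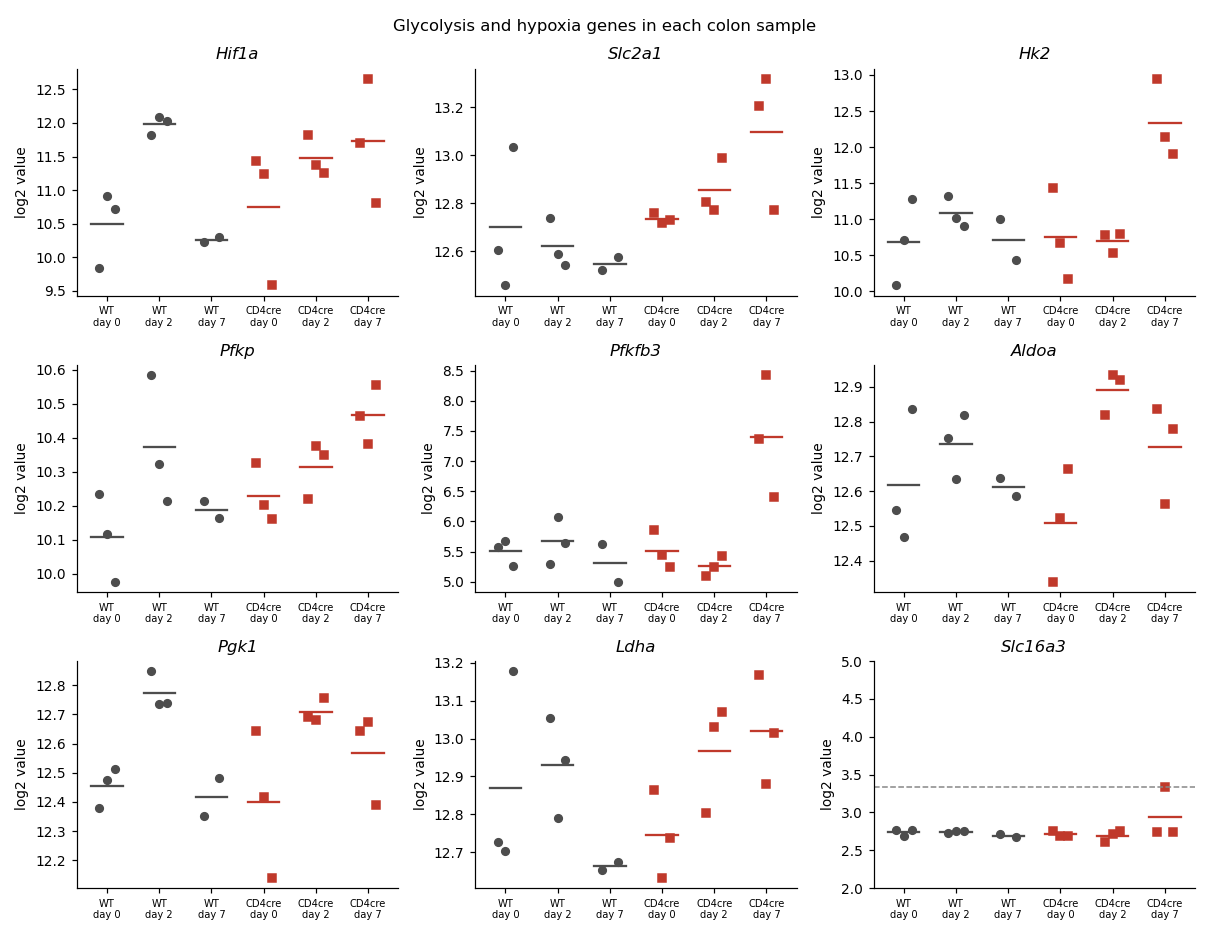
Log2 values (vertical axis, a separate scale in each panel) of the 9 measured genes in every colon sample, by genotype and day of DSS (horizontal axis); points are samples, bars are group means, and the dashed line in the Slc16a3 panel is the background level of 3.34. The 3 CD4cre samples of day 7 lie above all others for Hk2 and Pfkfb3, and Slc16a3 does not leave the background.

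Slc2a1, the main glucose transporter of most dividing cells, was bright in all groups. On day 0 it was 12.61, 12.46 and 13.04 in WT and 12.76, 12.72 and 12.73 in CD4cre mice. On day 7 it was 12.52 and 12.58 in WT and 13.20, 13.32 and 12.77 in CD4cre mice. The 3 CD4cre values of day 7 were above both WT values, and 2 of them were above every other sample, while replicate 3 lay only just above the CD4cre values of day 0. The difference between genotypes on day 7 was 0.55 (SE 0.17) with an adjusted p of 0.133, and the change in CD4cre mice was 0.36 (SE 0.15) with an adjusted p of 0.178. Neither was called. Without CD4cre day 7 replicate 3 they were 0.71 (adjusted p = 0.0168) and 0.52 (adjusted p = 0.0292), so 1 sample decided both calls. On day 2 Slc2a1 was 12.74, 12.59 and 12.54 in WT and 12.80, 12.77 and 12.99 in CD4cre mice, with changes of -0.08 and 0.12 that were not called.

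Hk2, the inducible hexokinase that traps glucose in the cell, rose in CD4cre mice on day 7. Its values were 11.44, 10.68 and 10.17 on day 0, 10.78, 10.53 and 10.80 on day 2 and 12.95, 12.14 and 11.91 on day 7. All 3 day 7 samples were higher than each of the other 14 samples of the series. The change from day 0 was 1.57 (SE 0.37, adjusted p = 0.0269), or 2.97-fold. WT mice had 10.08, 10.71 and 11.28 on day 0, 11.33, 11.02 and 10.91 on day 2 and 11.001 and 10.44 on day 7. The WT samples overlapped across all 3 days, and the WT change on day 7 was 0.03 with a 95% interval of -0.87 to 0.93. CD4cre exceeded WT on day 7 by 1.61 (SE 0.41), which was not called (adjusted p = 0.08). Hk1, the hexokinase present in most tissues, did not follow this pattern. On day 2 it was 0.53 above day 0 in WT mice (adjusted p = 0.0563) and 0.52 above it in CD4cre mice (adjusted p = 0.169), without overlap with day 0 in either genotype and without a call. On day 7 it stood at 9.47 in WT and 9.48 in CD4cre mice, against 9.52 and 9.57 on day 0. Hk3, the hexokinase of myeloid cells, had group means at background except in CD4cre mice on day 7, where it was 5.70, 5.28 and 3.15. Only the first and second of these samples were above background, and no call was made.

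Pfkfb3, the kinase that makes fructose 2,6-bisphosphate and so speeds up phosphofructokinase, showed the largest change of the set. It was 5.85, 5.44 and 5.24 in CD4cre mice on day 0, 5.10, 5.25 and 5.43 on day 2 and 7.36, 8.42 and 6.40 on day 7. In WT mice it was 5.58, 5.68 and 5.26 on day 0, 5.30, 6.07 and 5.63 on day 2 and 5.63 and 5.004 on day 7. The 3 CD4cre samples of day 7 were again above all other samples, although they differed from each other by up to 2 log2 units. Pfkfb3 rose by 1.89 (SE 0.40, adjusted p = 0.0178) from day 0, or 3.70-fold. It was the only gene of the 9 called between genotypes on day 7, at 2.08 (SE 0.45, adjusted p = 0.0465), when 2.03% of all genes were called and 0.918% were called higher in CD4cre mice. That call was near the threshold, and leaving out any 1 of 16 of the 17 samples ended it (1.57 to 2.39, adjusted p = 0.0556 to 0.291), while it held without CD4cre day 7 replicate 3 (2.58, adjusted p = 0.00232). A second Pfkfb3 probe set was at background in all groups, and averaging both gave changes of 0.92 and 1.04. Pfkfb4, another kinase of the same family, fell in CD4cre mice on day 7, from 6.74 to 6.08 (-0.66, SE 0.13, adjusted p = 0.0125). Its call was lost in 2 of 9 alternatives other than leaving out 1 sample (adjusted p up to 0.134).

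Pfkp, the platelet form of phosphofructokinase, gave different answers from its 3 probe sets. The brightest was 10.33, 10.20 and 10.16 in CD4cre mice on day 0 and 10.46, 10.38 and 10.56 on day 7, a change of 0.24 (SE 0.09) that was not called (adjusted p = 0.157). The dimmest was 4.61 to 4.96 on day 0 and 6.07 to 6.45 on day 7, and it rose by 1.38 (SE 0.19, adjusted p = 0.00212). That probe set was also higher in CD4cre than in WT mice on day 7, by 1.13 (SE 0.21, adjusted p = 0.0283), a call lost without WT day 7 replicate 1 or 2 or CD4cre day 7 replicate 1 (adjusted p up to 0.172) and in 3 of 8 other alternatives (up to 0.326). The middle one was 7.16 to 7.47 on day 0 and 6.37 to 7.01 on day 7, a change of -0.70 that was not called (adjusted p = 0.124). The groups did not overlap in any of the 3 probe sets, and the signs were not the same. In a fit of the 2 groups alone, the rise of the dimmest was no longer called (adjusted p = 0.0831). Which transcripts of Pfkp each probe set detects was not tested. Of the other forms of the enzyme, Pfkl had group means of 8.95 to 9.42 and Pfkm of 6.43 to 6.95, and neither was called in any comparison.

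**Figure D2:**
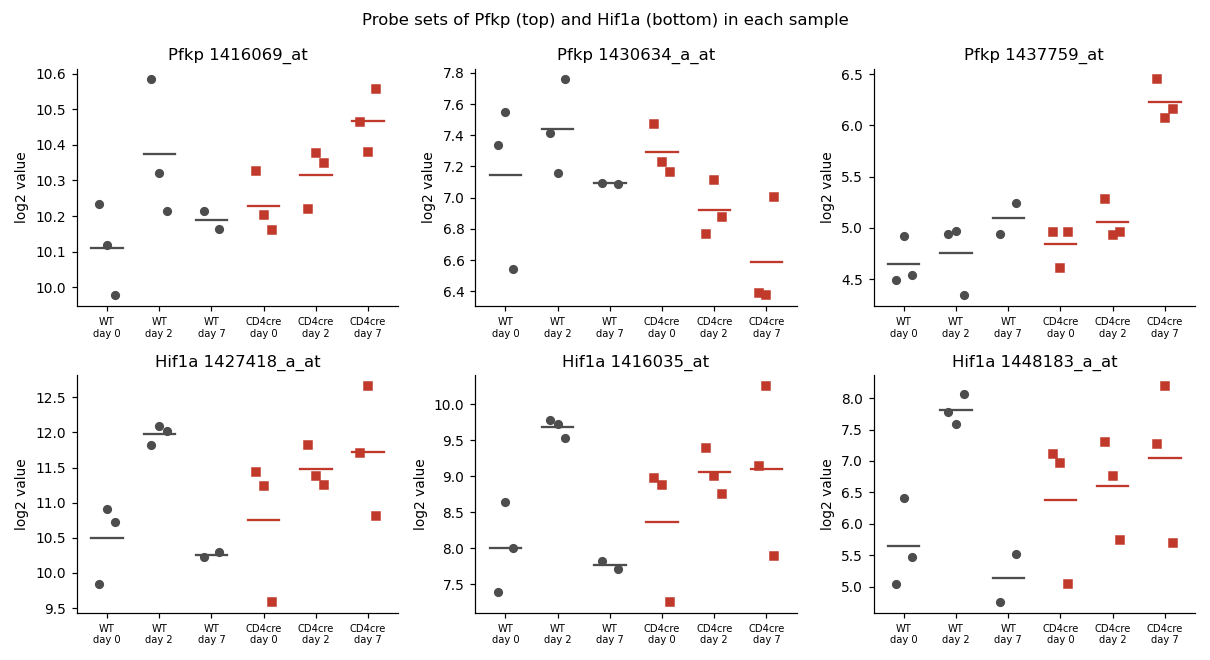
Log2 values (vertical axis, a separate scale in each panel) of 3 probe sets of Pfkp (top row) and 3 of Hif1a (bottom row) in every sample, by genotype and day (horizontal axis); points are samples and bars are group means. The Pfkp probe sets go up slightly, down and up by 1.38 in CD4cre mice on day 7, while the Hif1a probe sets share 1 pattern.

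Aldoa, Pgk1 and Ldha, enzymes of the lower part of the pathway, changed little. Aldoa, which splits fructose 1,6-bisphosphate, was 12.34, 12.52 and 12.66 in CD4cre mice on day 0, 12.82, 12.93 and 12.92 on day 2 and 12.84, 12.56 and 12.78 on day 7. The day 2 samples lay above those of day 0 by 0.38 (SE 0.11), without a call (adjusted p = 0.361). In WT mice Aldoa was 12.55, 12.47 and 12.84 on day 0, and the WT changes were 0.12 on day 2 and -0.01 on day 7. Further Aldoa probe sets changed by 0.10 to 0.45 on day 2 in CD4cre mice, some of them with overlap with day 0. In WT mice on day 2 they changed by -0.20 to 0.21, and none was called in either genotype.

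Pgk1, which makes the first ATP of the payoff phase, was highest on day 2 in both genotypes. In WT mice it was 12.38, 12.47 and 12.51 on day 0 and 12.85, 12.74 and 12.74 on day 2. In CD4cre mice it was 12.64, 12.42 and 12.14 on day 0 and 12.69, 12.68 and 12.76 on day 2. The day 2 samples were above those of day 0 in both genotypes, by 0.32 (SE 0.11, adjusted p = 0.299) in WT and 0.31 (SE 0.11, adjusted p = 0.548) in CD4cre mice, and neither was called. With the Hox position score in the fit, the WT change was 0.04 (adjusted p = 1), and the slope of Pgk1 on the score was 0.17 (SE 0.06, adjusted p = 0.197). On day 7 Pgk1 was 12.35 and 12.48 in WT and 12.64, 12.68 and 12.39 in CD4cre mice, with overlap between genotypes. A further Pgk1 probe set did not overlap between genotypes on day 7 (0.28, SE 0.13, adjusted p = 0.306), and another did (0.15, adjusted p = 0.749). On day 2 the former overlapped day 0 in CD4cre mice only, and the latter in WT mice only. Neither was called in any comparison.

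Ldha was 12.73, 12.70 and 13.18 in WT and 12.87, 12.63 and 12.74 in CD4cre mice on day 0. On day 7 it was 12.65 and 12.67 in WT and 13.17, 12.88 and 13.01 in CD4cre mice. The genotypes did not overlap on day 7 and differed by 0.36 (SE 0.14, adjusted p = 0.25), which was not called. Ldhb, the form that favours lactate oxidation, had group means of 7.31 to 7.86 and no call. Pkm, which makes the pyruvate that Ldha uses, was higher in CD4cre than in WT mice on day 7 by 0.61 (SE 0.12, adjusted p = 0.0283). It was 10.96 and 10.90 in WT and 11.54, 11.67 and 11.41 in CD4cre mice, without overlap. The call was lost without either WT sample of day 7 or without CD4cre day 7 replicate 1 or 2 (adjusted p up to 0.15), and in 4 of 9 other alternatives (up to 0.339).

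**Figure D3:**
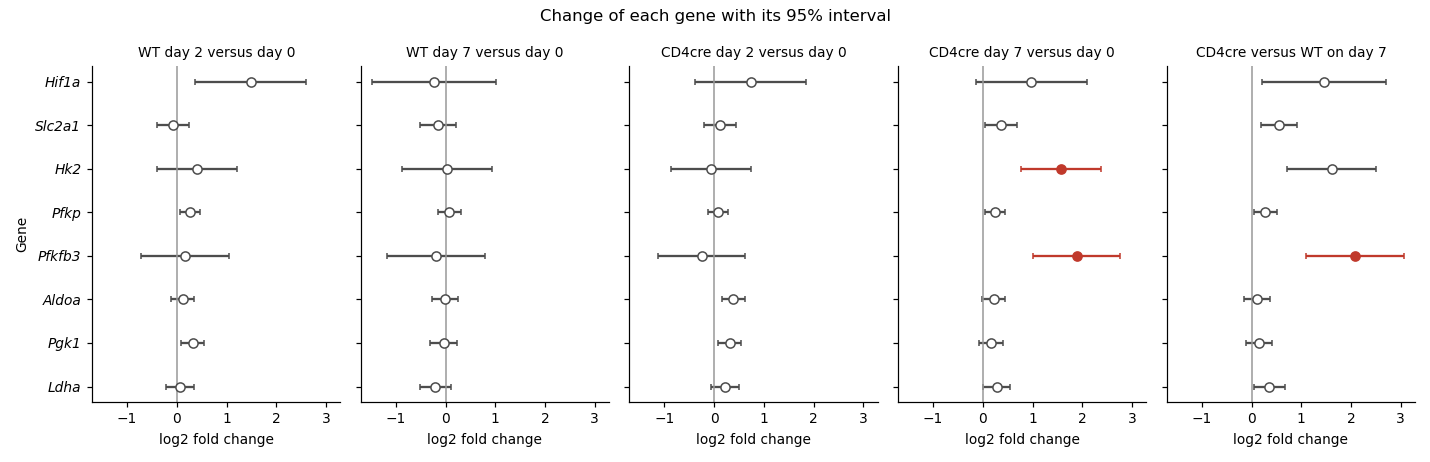
Log2 fold change (horizontal axis) of the 8 genes above background (vertical axis) in the 4 changes from day 0 and in the difference between genotypes on day 7, with 95% intervals; filled red points are called at an adjusted p under 0.05. Red points appear for Hk2 (1.57) and Pfkfb3 (1.89) in CD4cre mice on day 7 and for Pfkfb3 (2.08) between genotypes.

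On day 2 no gene of the set was called. In WT mice 0.731% of all genes were called, and 7 of the 8 values were above 0 with a median of 0.21. In CD4cre mice 0.0165% of all genes were called, and 6 of the 8 values were above 0 with a median of 0.17. At an unadjusted p under 0.05 there were 3 of the 8 in WT mice (Hif1a, Pgk1 and Pfkp), when 9.60% of all probe sets passed, and 2 in CD4cre mice (Aldoa and Pgk1), when 6.62% passed. Between genotypes, no gene of the set was called on day 0 (0.011% of all genes) or on day 2 (0.0275%), and none of the 8 had an unadjusted p under 0.05 (4.52% and 7.33% of all probe sets). Between genotypes on day 7, all 8 values were above 0 with a median of 0.45, against -0.01 over all genes. Of these, 6 had an unadjusted p under 0.05 (15.2% of all probe sets), and Pfkfb3 alone was called. The signs hold for the probe set that stood for each gene. In this comparison the middle Pfkp probe set was -0.50, and further Aldoa probe sets ran from -0.08 to 0.09. The response to DSS did not differ by a call between genotypes for any gene of the set, on day 2 (0% of all genes, none of the 8 at an unadjusted p under 0.05, against 4.28% of all probe sets) or on day 7 (0.159%, 4 of the 8, against 9.83%). On day 7 these 4 differences were 2.08 (SE 0.60) for Pfkfb3, 1.54 (SE 0.55) for Hk2, 0.51 (SE 0.22) for Slc2a1 and 0.48 (SE 0.19) for Ldha, with adjusted p-values of 0.22 to 0.476. The rises of Hk2 and Pfkfb3 in CD4cre mice are therefore not shown to differ from the changes in WT mice.

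Hif1a varied widely between samples of some groups. Its SD was 0.57 in WT and 1.02 in CD4cre mice on day 0 and 0.92 in CD4cre mice on day 7. In the other groups it was 0.05 to 0.30. Its WT values were 9.84, 10.91 and 10.72 on day 0, 11.82, 12.09 and 12.03 on day 2 and 10.23 and 10.29 on day 7. In CD4cre mice Hif1a was 11.44, 11.24 and 9.58 on day 0, 11.82, 11.38 and 11.26 on day 2 and 11.70, 12.66 and 10.81 on day 7. All WT samples of day 2 were above all WT samples of the other days. The WT change on day 2 was 1.49 (SE 0.51) and was not called (adjusted p = 0.307). The change in CD4cre mice on day 7 was 0.97 (SE 0.51, adjusted p = 0.266). CD4cre exceeded WT on day 7 by 1.46 (SE 0.57, adjusted p = 0.238), without overlap and without a call. Hif1a had 3 other probe sets: the 2 above background had WT changes of 1.67 and 2.16 on day 2, also not called, and the remaining one was at background in all groups.

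Hif1a moved with the Hox position score. Among the 6 samples of day 0, which had received no DSS, the score rose from -1.26 to 0.19 and Hif1a was 9.58, 9.84, 10.72, 11.24, 10.91 and 11.44 in that order. In a fit with the score beside the 6 group means, Hif1a rose by 1.04 (SE 0.16) for each unit of the score (adjusted p = 0.0104), when 3.04% of all genes had a called slope. Its other probe sets above background had slopes of 1.19 (adjusted p = 0.00376) and 1.39 (adjusted p = 0.0119). None of the other 8 genes had a called slope in the probe set that stood for it (0.54 for Pfkfb3, adjusted p = 0.307, 0.27 for Hk2, adjusted p = 0.585, and -0.19 for Aldoa, adjusted p = 0.0769), while 1 further Aldoa probe set did (-0.22, adjusted p = 0.0336). With the score in the fit, the change of Hif1a in WT mice on day 2 turned from 1.49 to -0.26 (adjusted p = 1). In the same fit Hif1a rose by 1.22 (SE 0.25, adjusted p = 0.0123) in CD4cre mice on day 7. This made 3 calls with Hk2 (1.64) and Pfkfb3 (2.02). Between genotypes on day 7, Pfkfb3 was 1.68 in that fit and no longer called (adjusted p = 0.12). The Hif1a difference between genotypes on day 7 was 0.69 in that fit, also not called, against 1.46 without the score. The slopes were examined after the data were seen, and whether the score stands for the site of sampling or for a change in the tissue was not tested.

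**Figure D4:**
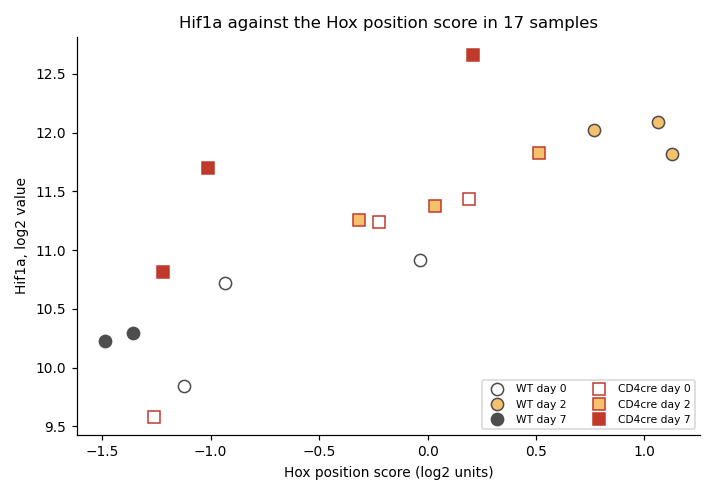
Hif1a in log2 units (vertical axis) against the Hox position score in log2 units (horizontal axis) in the 17 samples; circles are WT and squares CD4cre mice, open symbols are day 0, light orange is day 2, and dark fill is day 7. Samples of days 0 and 2 run together from lower left to upper right, and the 3 CD4cre samples of day 7 lie above samples of similar score.

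Of 14 further enzymes of glycolysis, none was called in CD4cre mice on day 7, when 5 had an unadjusted p under 0.05 (22.9% of all probe sets), and their median change was -0.06. Aldoc, an aldolase best known from the brain, rose in WT mice on day 2 by 1.45 (SE 0.25, adjusted p = 0.0348), and was the 1 of the 14 called there. Its WT values lay between 6.95 and 7.54 on day 0 and between 8.61 and 8.76 on day 2. The call was lost on leaving out any 1 of 11 of the 17 samples (adjusted p up to 0.115) and in 3 of 9 other alternatives, among them the Hox position score (adjusted p = 0.446). Of 9 further glucose transporters, Slc2a10 fell in CD4cre mice on day 7 by 1.12 (SE 0.26, adjusted p = 0.0247) and none rose. That call was lost without CD4cre day 7 replicate 1 or any 1 of the CD4cre samples of day 0 (adjusted p up to 0.0902). It was also lost in 2 of 9 other alternatives (adjusted p up to 0.15). Slc2a3, the transporter of neurons and leukocytes, was at background in group mean except in CD4cre mice on day 7 (2.66, 5.30 and 3.42), without a call.

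In CD4cre mice on day 7, the calls among genes that decide what becomes of pyruvate and lactate were all falls. Of 14 measured, 4 fell and none rose, when 4.33% of all genes were called lower, and the median was -0.31. Among all genes above background, 13.1% were called in either direction and 6.39% were called higher. Slc16a7, a monocarboxylate transporter, fell by 2.03 (SE 0.46, adjusted p = 0.0228), with samples between 6.26 and 6.34 on day 0 and between 3.57 and 4.74 on day 7. Pdk2, which switches pyruvate dehydrogenase off, fell by 1.44 (SE 0.27, adjusted p = 0.0102). Mpc1, a subunit of the carrier that brings pyruvate into mitochondria, fell by 0.94 (SE 0.16, adjusted p = 0.00601), with samples between 12.60 and 12.76 on day 0 and between 11.47 and 12.16 on day 7. Pdhb, a subunit of pyruvate dehydrogenase, fell by 0.52 (SE 0.11, adjusted p = 0.0206). On leaving out 1 sample at a time, the calls of Slc16a7 and Pdhb were each lost in 4 of 17 cases, all of them CD4cre samples of day 0 or 7 (adjusted p up to 0.0743), and those of Pdk2 and Mpc1 in none. In other alternatives, the calls of Pdk2 and Pdhb were each lost in 2 of 9 (adjusted p up to 0.126 and 0.209). That of Slc16a7 was lost in 2 of 8 (up to 0.124) and that of Mpc1 in 1 of 9 (0.183). WT mice had no call in this list on day 7, where the median was -0.22, and the differences between genotypes on day 7 were not called either.

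Of 16 measured genes of HIF subunits and oxygen sensing, 2 rose in CD4cre mice on day 7 and none fell, with a median of 0.05, when 4.35% of all genes and 6.39% of those above background were called higher. Epas1, the HIF-2 subunit that pairs with the same partner as Hif1a, rose by 0.52 (SE 0.12, adjusted p = 0.0265), and Egln3, an oxygen-dependent hydroxylase that marks HIF subunits for breakdown and is itself a HIF target, rose by 0.77 (SE 0.20, adjusted p = 0.0409). Of 30 HIF targets outside glycolysis, 5 rose and none fell against the same shares, with a median of 0.40. Angptl4, an inhibitor of lipoprotein lipase, rose by 3.33 (SE 0.78, adjusted p = 0.0273), with samples between 4.30 and 7.47 on day 0 and at 8.14, 9.78 and 8.85 on day 7. Hmox1, which breaks down haem, rose by 1.95 (SE 0.52, adjusted p = 0.0464) and was 5.62, 6.78 and 4.05 on day 7. Cldn1, a tight junction protein (1.12), Cxcl12, a chemokine of stromal cells (1.03), and Plin2, which coats lipid droplets (1.00), were the other 3. Plin2 was named after its value was seen. Targets without a call went both ways. Vegfa changed by -0.48 (SE 0.15, adjusted p = 0.0765), from 7.58 to 7.76 on day 0 to 6.86 to 7.44 on day 7. Tfrc (-0.67), Higd1a (-0.51) and Hilpda (-0.39) were also lower. Lox (2.11), Cxcr4 (2.07), Bnip3 (0.60) and Car9 (0.21) were among those higher. On leaving out 1 sample at a time, the call of Hmox1 was lost in 14 of 17 cases, that of Egln3 in 13 and that of Cldn1 in 12, and that of Angptl4 in 3 (CD4cre day 0 replicates 1 and 2 and CD4cre day 7 replicate 2). The call of Epas1 was lost without any 1 CD4cre sample of day 0, that of Cxcl12 without replicate 1 or 2 of them, and that of Plin2 without replicate 1. In other alternatives, the calls of Epas1, Egln3, Angptl4, Cxcl12 and Plin2 were each lost in 2 of 9 (adjusted p up to 0.223). Those of Cldn1 and Hmox1 were lost in 2 and 3 of 8 (up to 0.236). Angptl4, Plin2 and Hmox1 are known to answer to signals other than HIF as well. In WT mice on day 2, Ddit4, a stress-induced inhibitor of mTOR, was the 1 of the 30 called (1.39, SE 0.18, adjusted p = 0.0142), and with the Hox position score it was not (1.06, adjusted p = 0.343). Between genotypes on day 7, Adm, a vasodilator peptide, was the 1 of the 30 called, at 4.83 and 3.46 in WT and 6.58, 7.06 and 5.63 in CD4cre mice (2.28, SE 0.46, adjusted p = 0.0348). That call was lost on leaving out any 1 of 9 of the 17 samples (1.60 to 2.28, adjusted p up to 0.266) and in 3 of 8 other alternatives (adjusted p up to 0.57).

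**Figure D5:**
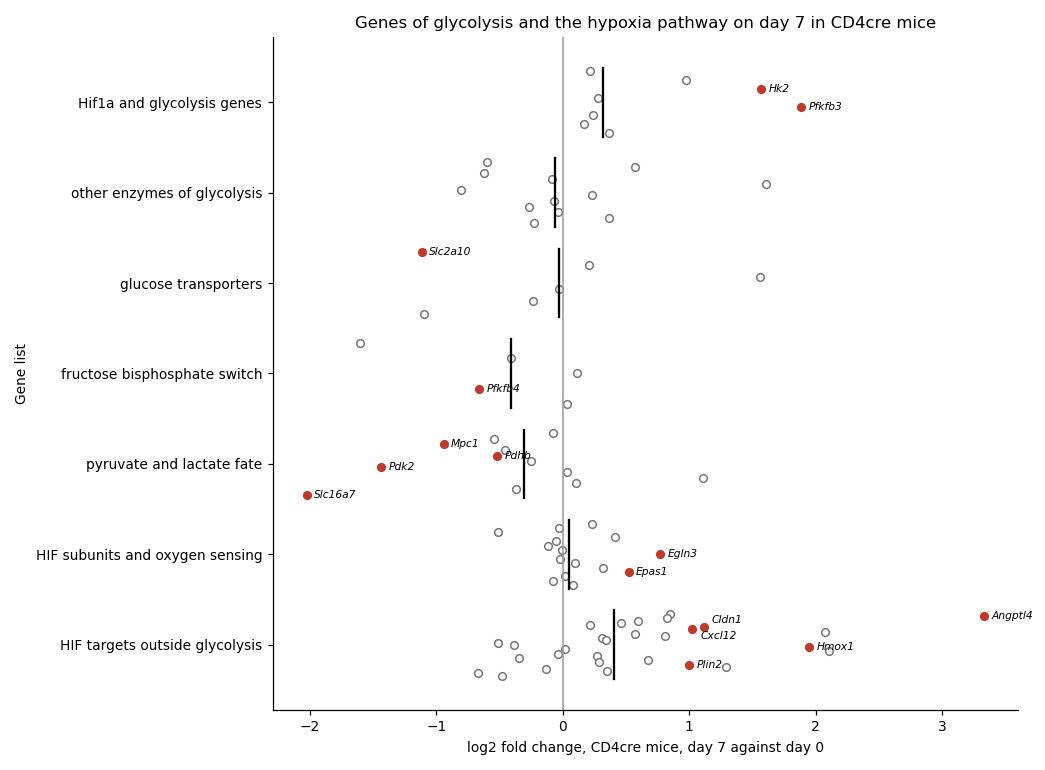
Log2 fold change in CD4cre mice on day 7 against day 0 (horizontal axis) of each gene above background in 1 of the groups, by gene list (vertical axis); filled red points are called and named, and black lines are medians over all measured genes of a list (without Slc16a3 for the set of 10). Called genes of the pyruvate and lactate list lie on the left (-2.03 to -0.52) and those of both HIF lists on the right (0.52 to 3.33).

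Markers of other cells rose in the same 3 samples in which Hk2 and Pfkfb3 were high. The marker lists were chosen with earlier results of these data known, so counts from them are a description. All 14 measured monocyte and macrophage markers rose in CD4cre mice on day 7, when 4.35% of all genes were called higher, and their mean level was 8.75, 9.95 and 8.69 there, against 6.57 to 6.82 on day 0 and 7.64 to 7.87 in WT mice on day 7. Of 12 neutrophil markers 3 rose, and their mean level was 4.51, 5.29 and 4.15 against 2.80 to 2.85 on day 0, with 6 or 7 of the 12 still at background in each of these samples. Of 12 fibroblast and matrix markers 7 rose, with a mean level of 11.36, 12.63 and 11.34 against 10.48 to 10.67. None of 15 colon epithelium markers was called (12.62 to 13.20 against 12.56 to 13.11), and neither was any of 6 T cell markers (3.14 to 3.60 against 3.10 to 3.29). Replicate 2 was the highest of the 3 in the 3 lists that rose and also in Pfkfb3, Slc2a1 and Hif1a, whereas Hk2 was highest in replicate 1. These lists also moved in groups without a call of Hk2 or Pfkfb3 against day 0. Monocyte and macrophage markers stood at 6.81 to 6.88 on day 0 and 7.33 to 7.88 on day 2 in WT mice, and at 7.05 to 7.60 in CD4cre mice on day 2. Neutrophil markers stood at 2.78 to 2.93 on day 0 and 3.33 to 3.41 on day 7 in WT mice. Fibroblast and matrix markers stood at 10.53 to 10.78 and 10.75 to 10.95 there, and at 10.89 to 11.27 in CD4cre mice on day 2. The part of these cells in the changes of Hk2, Pfkfb3 and the HIF targets was not tested. In whole tissue, more cells of a type and more RNA per cell cannot be told apart.

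Among 11647 other genes above background, the one whose values followed each gene most closely over the 17 samples was found as a description. It was Cxcl1, a chemokine that attracts neutrophils, for Pfkfb3 (Pearson r = 0.96, Spearman rho = 0.77), Prdm4 for Hk2 (r = 0.93, rho = 0.85) and Rab32 for Hif1a (r = 0.95, rho = 0.90). For Slc2a1 it was Dmtf1 (r = 0.88, rho = 0.77), for Pfkp Cd48, a leukocyte surface protein (r = 0.82, rho = 0.78), and for Ldha Myh14 (r = 0.84, rho = 0.84). For Aldoa it was Add1 (r = 0.90, rho = 0.88) and for Pgk1 Tmem131 (r = 0.90, rho = 0.82). The samples share groups, so these values reflect the group differences too, and for Pfkfb3 the lower rank correlation goes with 3 samples that stand far above the rest.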

How the data were processed

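The series holds log2 values of colon RNA on 17 Affymetrix mouse arrays. The authors used affy and gcRMA in R 2.9.0, which corrects background, normalizes and summarizes probe sets, and they deposited the log2 values, which ran from 0.76 to 16.47. Normalizing all arrays together can hide a shift shared by most genes. The number of arrays limits the precision.

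Of 45101 probe sets, 64 controls were left out. A model of 6 group means (11 residual and 0.888 prior degrees of freedom) was fitted with limma 3.58.1 (R 4.3.3) for 9 comparisons, two-sided, with Benjamini-Hochberg adjustment within each, after a test on simulated data. The SD shared by the fit rests on all groups, whose spread differed. The table of symbols gave 34945 probe sets with 1 gene, of 18193 genes. The background level (3.34) was the 95th percentile of values of 74 probe sets whose genes belong to other tissues. Ttr, Mbp and Gfap were taken out of that list after their values were seen, because cells of the gut make them, and with them (89 probe sets) the level was 5.74. The genes and lists were chosen with earlier results of these data known. Named are all genes of the set, isoform partners, up to 4 called genes of a list and the most similar gene. Promoters came from RefSeq, GRCm38.p6. Alternatives covered the samples fitted, centring, variance model, dim probe sets, choice of probe set, replicate block, Hox position score, pancreatic transcripts and each sample left out. Figures were drawn with matplotlib 3.10.9.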

Additional observations from a re-analysis of the deposited data

How the results depend on the processing

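In CD4cre mice on day 7 against day 0, 2 genes of the set were called. The count was 0 in a fit of only the 2 groups compared (Hk2 1.57, adjusted p = 0.209, Pfkfb3 1.89, adjusted p = 0.212), in which 28 of all probe sets were called against 3036, and 0 without the 3 samples with pancreatic transcripts, 1 of which is a day 0 sample (Hk2 1.53, adjusted p = 0.15, Pfkfb3 1.85, adjusted p = 0.101). With each array centred on its median the count stayed at 2, while 18002 of the 45037 probe sets were called. With 1 sample removed the count ran from 0 to 3: it was 0 without CD4cre day 0 replicate 2 or replicate 3, and 1 without CD4cre day 7 replicate 1. Between genotypes on day 7, 1 gene was called. The count was 0 in the fit of only those groups, with the Hox position score and without the pancreatic samples, and 2 when probe sets under the background level of 3.34 or of 5.74 were left out, with Hk2 as the second. Leaving out 1 sample gave 0 to 3. For the difference of DSS effects on day 7, none was called and leaving out 1 sample gave 0 to 1 (Pfkfb3, 2.57, adjusted p = 0.0154, without CD4cre day 7 replicate 3). Hif1a in WT mice on day 2 turned to -0.26 with the Hox position score. Against the background level of 5.74, Pfkfb3 was at least 3.15-fold higher on day 7 in CD4cre mice than in both of its comparison groups. The day 0 means of Angptl4, Hmox1, Cldn1 and the dimmest Pfkp probe set in CD4cre mice, the day 7 means of Slc16a7, Pdk2, Hmox1, Cldn1 and Slc2a10 there, and the day 7 means of Adm and that Pfkp probe set in WT mice were also under that level, which limits their fold changes.

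With the replicate block, the count on day 7 between genotypes was 0 (Pfkfb3 2.22, adjusted p = 0.0509), and in CD4cre mice on day 7 against day 0 it stayed at 2. Same-numbered samples did not deviate together throughout (15 of 40 pairs over 0.1, range -0.45 to 0.51), so the numbers were not read as a pairing. Pairs of replicate 3 were mostly above 0 (-0.09 to 0.32), while those of replicates 1 (-0.45 to 0.17) and 2 (-0.43 to 0.51) lay on both sides. The other 6 comparisons had no call among the set in any of the 26 alternatives. The causes of these shifts were not tested, beyond the fewer samples or fewer genes that some alternatives hold by construction.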
